A study of Mus musculus with 8 samples.

Results

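Laminins are the cross-shaped proteins of the basement membrane, each built from an alpha, a beta and a gamma chain. The genes described here are the laminin chains that can be read from count tables of mouse hepatic stellate cells. Libraries labelled as a stellate cell knockout of AREL1 are compared with libraries labelled as its floxed control. The rule names 9 chains (Lama1, Lama2, Lama3, Lama4, Lama5, Lamb1, Lamb2, Lamb3 and Lamc1) and takes the rows whose Ensembl identifiers carry those symbols. It found 2 of the 9, Lamc1 and Lamb3, among the 1933 gene rows that the tables share. The other 7 lie on other chromosomes than chromosome 1 and were not analysed here. Both were higher in the knockout, Lamc1 by 18.5% and Lamb3 by 57.4%.

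The study compared 4 libraries labelled AREL1HSC-KO (KO below) with 4 labelled AREL1fl/fl (fl/fl below), all from male mice on the same diet. Feeding on a Western diet with 21% fat, 20% protein and 50% carbohydrate started at 4 weeks of age, went on for 20 weeks, and livers with steatohepatitis (MASH) were taken in week 24. AREL1, an E3 ubiquitin ligase, is known to counter apoptosis. The fl/fl titles name its floxed allele and the KO titles a stellate cell knockout, and no label used here names a Cre driver. In 3 of the 4 KO libraries the genotype field and the title differ by a digit of the gene name, and titles were followed. The names given to the deposited counts use ctrl and Sg, which the titles do not explain. The biological coefficient of variation estimated over the tested genes was low, at 2.53%. Nothing says whether libraries of a group come from separate mice, so p-values measure only how these libraries vary, and that variation may be technical.

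A laminin is assembled inside the cell, where beta and gamma chains first form a dimer and the alpha chain then joins and allows secretion. The trimer is named by its chains, and the Lamb3 product is the beta chain of laminin-332. Outside the cell, laminins bind integrins and dystroglycan and polymerise into the sheet on which collagen IV and nidogen are laid. The normal liver sinusoid has little laminin, and its deposition along the sinusoids is a known feature of fibrosis, with stellate cells among its sources. Laminin-332 is best known from the skin, where it anchors basal keratinocytes.

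The end of the Lamb3 coding sequence is shown because this part of a beta chain is known to join its gamma chain. It is the last 30 bases (10 codons) before the stop codon, written 5′ to 3′ on the coding strand, from GENCODE M21 transcripts (GRCm38).
Lamb3: gggcgagtgctctactatgccaccTGCaag
The capitals mark a cysteine codon, TGC, which is codon 1167 of 1168. Cysteines near the ends of the chains are known to tie beta to gamma in laminins.

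Lamc1 (ENSMUSG00000026478) encodes gamma1, the gamma chain shared by most laminins. It lies at chr1:153218922-153332786 on the minus strand in GRCm38 and has 28 merged exons in GENCODE M21, with 8272 exonic bases. Levels are given as CPM, read counts scaled to a common total of gene-assigned reads and corrected with trimmed means (TMM). In fl/fl replicates 1 to 4 Lamc1 stood at 315, 313.9, 306 and 336.7 CPM. In KO replicates 1 to 4 it stood at 388.4, 374.1, 369.1 and 375 CPM. The lowest KO library therefore lay above the highest fl/fl library, replicate 4. Lamc1 rose from 317.9 ± 13.1 to 376.6 ± 8.27 CPM (SD, n = 4), a log2 fold change of 0.24 (SE 0.027, 95% interval 0.19 to 0.30, edgeR quasi-likelihood adjusted p = 2.58e-08). These values rest on 5293 to 6121 reads a library in fl/fl and 7309 to 9601 in KO. Lamc1 had the 10th smallest p of the 420 genes tested and the 45th highest log2 fold change.

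Lamb3 (ENSMUSG00000026639) encodes beta3, the beta chain of laminin-332. It lies at chr1:193207699-193343878 on the plus strand in GRCm38 and has 34 merged exons with 6612 exonic bases. Its counts were low, at 28, 27, 30 and 35 reads in fl/fl replicates 1 to 4 and 70, 76, 45 and 50 reads in KO replicates 1 to 4. Scaled, these were 1.441, 1.539, 1.734 and 2.003 CPM in fl/fl and 2.863, 2.961, 2.185 and 2.565 CPM in KO. The groups did not overlap, although fl/fl replicate 4 and KO replicate 3 lay close together. Lamb3 rose from 1.679 ± 0.248 to 2.644 ± 0.349 CPM (SD, n = 4; log2 fold change 0.67, SE 0.18, 95% interval 0.31 to 1.03, edgeR adjusted p = 0.00343), the 9th highest log2 fold change of the 420 genes. The call rests on 120 reads over the fl/fl libraries and 241 over the KO libraries. With reverse-strand counts alone, 62 and 119 reads, it was lost (log2 fold change 0.59, edgeR adjusted p = 0.0811; the alternatives gave 0.000441 to 0.0811). With forward-strand counts alone, 58 and 122 reads, it was kept (log2 fold change 0.74, edgeR adjusted p = 0.0199).

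**Figure D1:**
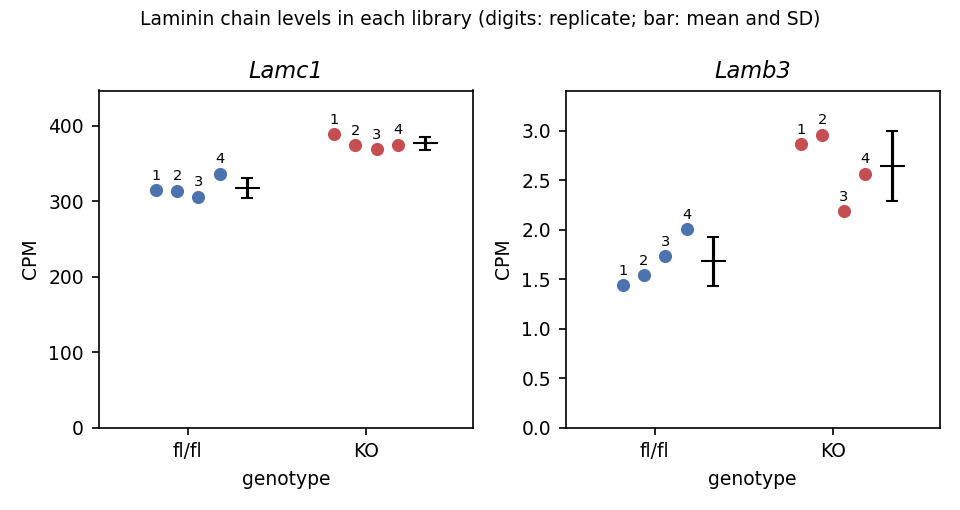
Level of Lamc1 and Lamb3 in CPM (vertical axes, from 0) in each of the 4 fl/fl and 4 KO libraries; points are libraries with their replicate number, and bars give the mean and SD. In each panel the KO points lie above the fl/fl points, and fl/fl replicate 4 is the highest of its group (336.7 and 2.003 CPM).

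Both members found by the rule were called higher in KO. Over all 420 genes tested, 37.6% were called in either direction and 18.3% higher in KO, so that single calls are common in this comparison. Groups that do not overlap with KO above were found in 14.8% of the genes. The 2 members had log2 fold changes of 0.24 and 0.67, while the median over all genes was 0.0034 and the median absolute value 0.12. TMM scaling on these same genes holds their median near 0. It was 0.055 with upper-quartile scaling and 0.036 with library totals alone. Of 158 called genes 48.7% were higher in KO, and this share was 69.8% with upper-quartile scaling and 60.6% with library totals alone. Both chains were called higher under each of these scalings. Since these are bulk libraries, more cells that express a chain and more RNA of it per cell cannot be told apart.

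**Figure D2:**
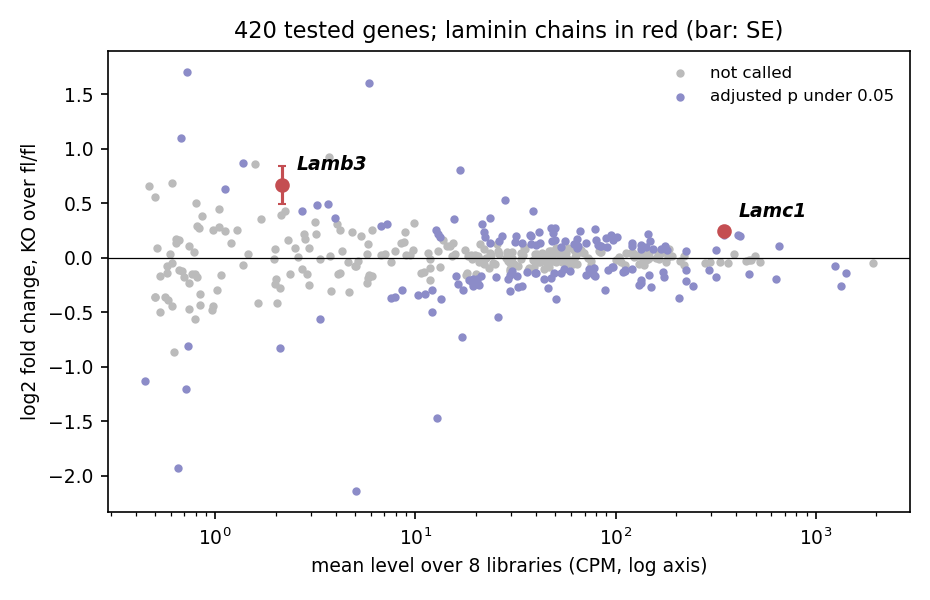
Log2 fold change of KO over fl/fl (vertical axis) against the mean level over the 8 libraries in CPM (horizontal log axis) for the 420 genes tested; each point is a gene, and the laminin chains are in red with their SE. The chains lie above 0, at 0.24 (Lamc1) and 0.67 (Lamb3), at very different levels.

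Library replicate 4 of fl/fl was the highest fl/fl library for both chains. It also stood apart from its group over the genes as a whole. Its chi-square per degree of freedom was 3.37, 3.44 and 3.53 against fl/fl replicates 1, 2 and 3. For all other pairs of libraries of a group this was 1.39 to 1.82. Without fl/fl replicate 4 the log2 fold changes were 0.27 for Lamc1 and 0.76 for Lamb3 (edgeR adjusted p = 4.84e-33 and 0.000441), and 191 genes were called in place of 158. The SE of Lamc1 was 0.022 there and 0.027 with all libraries. Its far smaller p does not measure a like change in the effect or its SE, and what lowered it was not examined. When each library was left out in turn, the log2 fold change ranged from 0.23 to 0.27 for Lamc1 and from 0.60 to 0.76 for Lamb3, and neither call was lost. The spread of Lamc1 between fl/fl libraries, a coefficient of variation of 4.13%, was above the 1.33% that counting alone gives. For Lamb3 it was 14.8% in fl/fl and 13.2% in KO, against counting errors of 18.3% and 13.1%, so its spread cannot be separated from counting error.

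Levels of different genes were compared per length, as CPM per kilobase of merged exons in GENCODE M21. In fl/fl Lamc1 stood at 38.43 ± 1.59 CPM per kb and in KO at 45.53 ± 1 (SD, n = 4). Lamb3 stood at 0.254 ± 0.0375 CPM per kb in fl/fl and 0.3998 ± 0.0528 in KO. Lamc1 lay above Lamb3 in every library. Among the 419 tested genes with a length, Lamc1 ranked 36th in fl/fl and 26th in KO, and Lamb3 388th and 370th. The median gene stood at 5.144 CPM per kb in fl/fl and 5.274 in KO.

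Lamb3 amounted to 0.5723%, 0.6133%, 0.7091% and 0.7444% of the per-length level of Lamc1 in fl/fl replicates 1 to 4. In KO replicates 1 to 4 it amounted to 0.9222%, 0.9903%, 0.7406% and 0.8558%. The ratio of fl/fl replicate 4 lay just above that of KO replicate 3, so the groups overlapped. The 4 fl/fl libraries averaged 0.6598% ± 0.0804 (SD), and the 4 KO libraries averaged 0.8772% ± 0.106 (SD). This balance between the chains was described only and not tested.

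**Figure D3:**
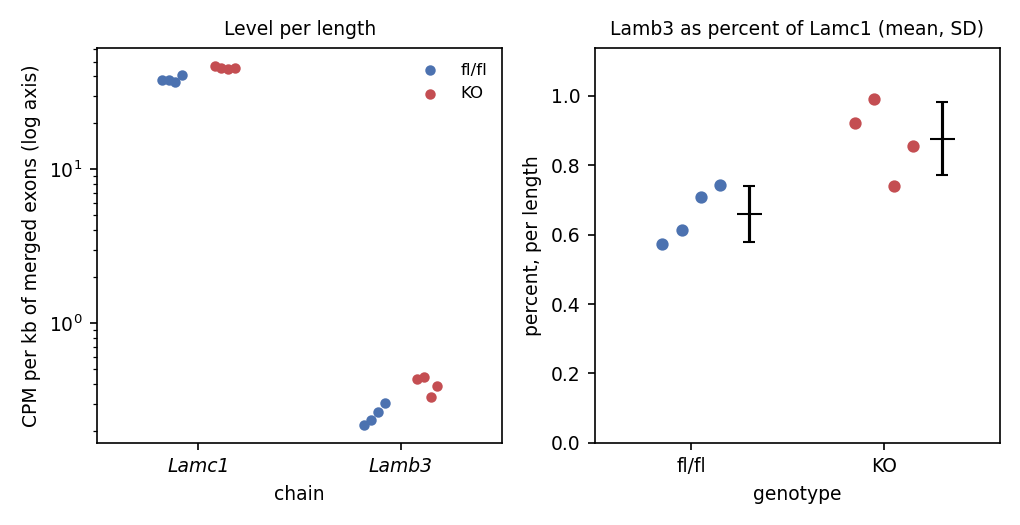
Left, level of each chain in CPM per kb of merged exons (log axis) in each library; right, Lamb3 as a percent of Lamc1 per length (axis from 0), with mean and SD of 4 libraries. Lamc1 lies far above Lamb3, and the ratios of the groups overlap (0.7444% in fl/fl replicate 4, 0.7406% in KO replicate 3).

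Which trimers these cells can build could be read only in part. Of 14 laminins on a list of known trimers, 10 need Lamc1, 1 (laminin-332) needs Lamb3, and 3 need Lamc3, which was not analysed here. None of the 5 alpha chains of the rule was analysed, so for 0 of the 14 trimers were all 3 chains measured. The gamma transcript of the 10 was abundant in both groups, and the beta transcript of laminin-332 was present at a low level in every library.

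Of 61 genes on lists of laminin receptors, basement membrane partners, dystroglycan glycosylation, the dystrophin complex, laminin processing and adhesion linkers, 2 were in the rows. Both are collagen IV chains, Col4a3 and Col4a4, which form the network of the kidney filter together with Col4a5. Col4a3 had 23 reads over the fl/fl libraries and 14 over the KO libraries, and Col4a4 had 41 and 40. Col4a4 passed the filter on low counts, with means of 0.568 CPM (SD 0.23) over the 4 fl/fl libraries and 0.436 CPM (SD 0.133) over the 4 KO libraries. Its log2 fold change of -0.36 (SE 0.37) was not called (edgeR adjusted p = 0.47). Col4a3 did not pass it. Without that filter Col4a3 had a log2 fold change of -1.01 (SE 0.56) and was not called (edgeR adjusted p = 0.296). The receptors of laminin, integrin chains and dystroglycan among them, were not analysed here.

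The tested genes that flank Lamb3 did not all move with it. They were the 3 nearest on either side, taken after the data had been seen. Sertad4 rose from 29.54 ± 2.3 to 33.85 ± 1.17 CPM (SD, n = 4; log2 fold change 0.20, edgeR adjusted p = 0.00283) and Plxna2, a semaphorin receptor, from 6.062 ± 0.641 to 7.428 ± 0.985 CPM (0.30, adjusted p = 0.0315), with overlapping groups in both. Hhat, the acyltransferase of hedgehog proteins, had a log2 fold change of -0.18 (SE 0.10) and Cd34 of 0.050 (SE 0.033), and neither was called, nor were Gm10516 and Gm16897. Of the 6 flanking genes 2 were called, both higher, beside the 37.6% called over all genes.

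**Figure D4:**
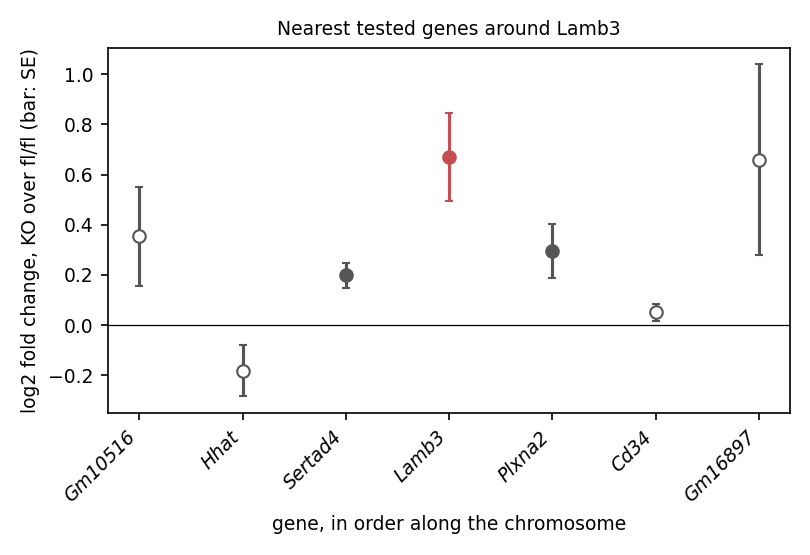
Log2 fold change of KO over fl/fl with its SE (vertical axis) for Lamb3 (red) and the 3 nearest tested genes on either side (grey), in order along the chromosome; filled points have an adjusted p under 0.05. Of the 6 flanking genes, Sertad4 and Plxna2 are filled, with values (0.20 and 0.30) below that of Lamb3 (0.67).

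The genes most like each member over the 8 libraries were found by Pearson's r of log2 CPM, among genes with a mean of at least 5 CPM. For Lamc1 these were Mcm3 (r = 0.99), the transcription factor gene Klf7 (0.98) and Mcm6 (0.98). Mcm3 and Mcm6 encode subunits of the replicative helicase. Within the groups, after group means were removed, their r with Lamc1 was 0.89, 0.79 and 0.74. For Lamb3 the genes were Rab3gap2 (0.97), Cnnm3 (0.96) and Edem3 (0.95), with 0.85, 0.80 and 0.82 within the groups. These values describe 8 libraries that share the genotype contrast, depth and the place of fl/fl replicate 4, and the Lamb3 values rest on few reads. The genes were picked for a high r over these same libraries. High values within the groups therefore follow in part from that choice and give no separate evidence of a link.

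Although the kit is named as stranded, reads over all shared rows fell on both strands about equally. The ratio of reverse to forward reads ran from 0.985 to 1.019 across the libraries. Summed over a group, reads of the chains were split about equally too. The forward share was 49.9% in fl/fl and 49.1% in KO for Lamc1, and 48.3% and 50.6% for Lamb3. Single libraries were less even for Lamb3. In KO replicates 1 to 4 its forward and reverse reads were 35 and 35, 36 and 40, 32 and 13, and 19 and 31. Genes on the opposite strand could therefore add reads, which was not tested. In GENCODE M21 no other gene shares exonic bases with a chain. However, 103 of the 1933 shared rows have no entry in that release, and their overlap was not examined. Within the span of Lamb3 lie Hsd11b1 and G0s2 on the other strand, with 5 and 0 reads over the fl/fl libraries and 1 and 0 over the KO libraries. Within the span of Lamc1 lies the pseudogene Gm8818, with 3 and 4 reads.

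**Figure D5:**
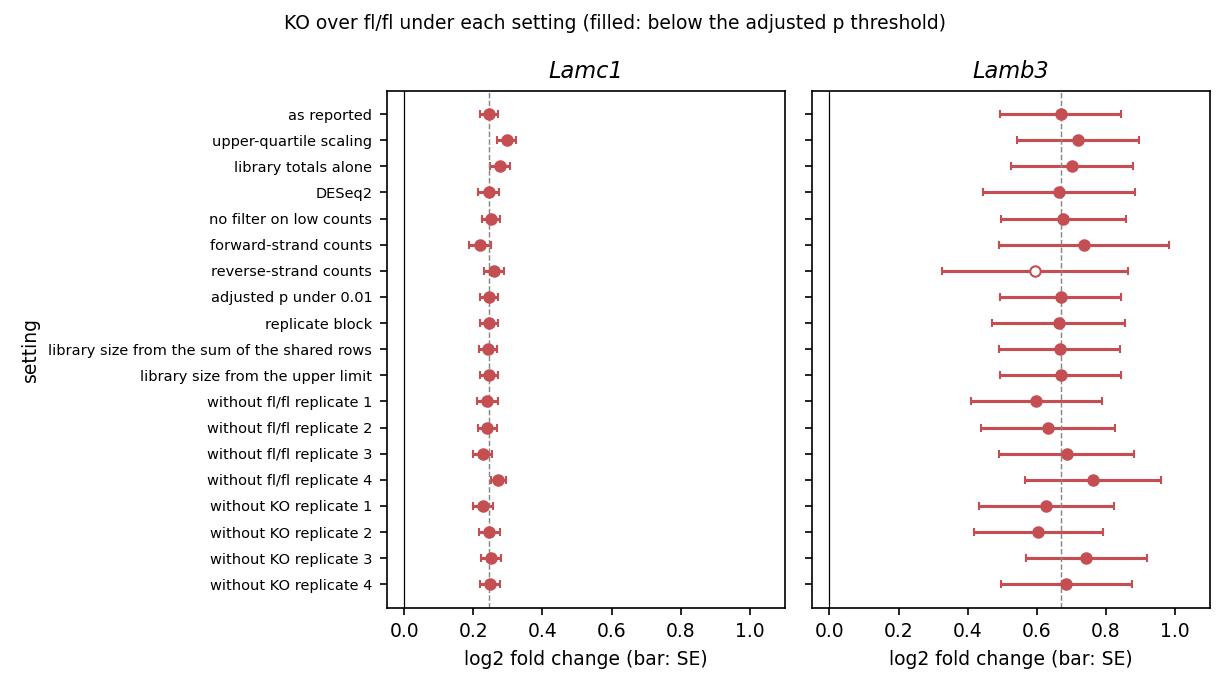
Log2 fold change of KO over fl/fl with its SE (horizontal axes) for each chain as reported and under 18 other settings (vertical axis); filled points are below the adjusted p threshold, and the dashed line marks the reported value. Lamc1 is filled throughout, and Lamb3 is open with reverse-strand counts (0.59).

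The depth was 17619387 to 19663030 gene-assigned reads in fl/fl and 19271004 to 25165289 in KO, and the shared rows held 3.2% to 3.28% of them. Of 65 markers for stellate cells and other liver cells only Cd34, listed for portal fibroblasts and mesothelium, was in the rows (81.59 ± 3.14 CPM in fl/fl and 84.61 ± 1.83 in KO), so neither the cell type nor the deletion of Arel1 was checked. Unmapped reads made up 1.114% ± 0.0686 of fl/fl and 1.485% ± 0.0543 of KO libraries (SD, n = 4; exact two-sided permutation p = 0.0286, adjusted over 6 measures 0.0857). No smaller p than 0.0286 can arise with 4 against 4. Reads outside annotated features made up 4.226% ± 0.0192 and 3.966% ± 0.0993 (exact permutation p = 0.0286, adjusted 0.0857). The part of these differences in the laminin values was not tested. No batch or date is labelled, so a batch that follows the groups and the genotype cannot be told apart.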

How the data were processed

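RNA was measured in 8 libraries, and groups were taken from the sample titles. The authors deposited whole-number read counts per gene, laid out as STAR's gene count output with either-strand, forward and reverse columns. Per the submitters' processing notes, STAR 2.7.10a, fastp, DESeq2 1.38.0 and the builds GRCm39 and GRCm38 were used; no source used here states the annotation release. Only the 1933 rows common to the tables were used, all 1830 with a symbol in GENCODE M21 lying on chromosome 1. Because these rows are part of a library, its total was derived from the summary rows (a lower limit; the upper lay 2.51% to 2.65% higher). Either-strand counts were fitted with edgeR 4.0.16 in R 4.3.3 (filterByExpr, TMM, robust quasi-likelihood F test, Benjamini-Hochberg over 420 genes, threshold 0.05); positive values are higher in KO, and SEs come from the F statistic. The fit was tested on simulated data.

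Lengths and coordinates are those of GENCODE M21 (GRCm38); the build behind the counts may differ. No 2 libraries of a group agreed within sampling noise (largest chi-square p = 2.59e-07). Named were all members found, up to 4 called genes of each partner list and the 3 genes most like each member. Some rows are not reported here. The members and lists were chosen with earlier results of these data known. Alternatives were scaling, DESeq2 1.42.0, filter, strand column, threshold, replicate block, length and each library left out; other library sizes were added after seeing the data.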

Additional observations from a re-analysis of the deposited data

Results flagged for a closer look

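Each group of 4 libraries was examined for a value far from the other 3 by Dixon's 95% limit, which chance passes in about 1 of 20 groups. Of 12 groups 1 held such a value. The total of gene-assigned reads was 19663030 in fl/fl replicate 1, where the others lay between 17619387 and 17642249, a gap of 0.989 of the range.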

How the results depend on the processing

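Lamc1 kept its direction and call under all 18 other settings, with log2 fold changes of 0.22 to 0.30. Lamb3 kept its direction under all 18 (0.59 to 0.76) and its call under 17. With reverse-strand counts it was 0.59 (adjusted p = 0.0811), which left 1 member called in place of 2; the cause was not tested. With forward-strand counts it was 0.74 (adjusted p = 0.0199). The count of called genes was 158 and ranged from 108 to 191 over the settings, 132 to 191 when a library was left out. With the longest transcript as length, Lamb3 was 0.826% of Lamc1 in fl/fl and 1.1% in KO. Replicate numbers are shared by the groups, but the labels tie them to no animal, and the deviations of same-numbered libraries had correlations of -0.16, 0.13, -0.11 and -0.04. With the replicate block 150 genes were called, and the log2 fold changes were 0.25 for Lamc1 and 0.66 for Lamb3. The depth of Lamb3, 27 to 76 reads a library, limits its precision.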
